A study of Mus musculus with 8 samples.

Results

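The 10 genes followed here belong to the bone morphogenetic protein (BMP) pathway and its ID targets: the ligand gene Bmp4, the receptor gene Bmpr1a, the signal carriers Smad1 and Smad5, the inhibitory Smad6 and Smad7, and Id1, Id2, Id3 and Id4. They were chosen by name, and each probe set annotated to 1 of these symbols alone was taken. That gave 24 probe sets for 10 genes, out of 45037 probe sets and 18193 named genes on the array. A probe set is a group of short probes read as 1 value. Of the 24, 23 passed the filter on low values (a log2 signal of at least 4 in at least 2 arrays), and all 10 genes kept at least 1. The Bmpr1a probe set 1445413_at did not pass, with signals of 3.77 to 31.8.

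RNA came from J1 mouse embryonic stem (ES) cells, a wild-type line, and from Rex-1-/- ES cells, which are labelled as lacking Rex-1 (gene symbol Zfp42), a zinc finger protein of undifferentiated ES cells. Each line was grown in the presence or absence of leukemia inhibitory factor (LIF), the cytokine that keeps ES cells undifferentiated in serum, which gives 4 groups of 2 arrays, 8 arrays in all. Every group grew on gelatin without a feeder layer named, in medium with 10% fetal calf serum, and a text common to all arrays gives 12 hours without LIF. The labels say neither how the deletion was made nor how many clones were grown. Titles within a group differ by a final letter r, whose meaning is not stated, so the array without it is called the first and the array with it the second. The series text calls them biological replicates, but no label ties them to separate cultures, so a p-value here reflects array-to-array spread, which may be technical.

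BMP ligands bind pairs of type I and type II receptor kinases. Bmpr1a is a type I receptor that phosphorylates SMAD1 and SMAD5, which join SMAD4, enter the nucleus and bind DNA. Smad6, Smad7 and the Id genes are among the best known direct targets: SMAD6 and SMAD7 feed back to block the receptors, and ID proteins, which have a helix-loop-helix but no DNA-binding part, hold E proteins away from DNA. In mouse ES cells, BMP4 or serum together with LIF is known to hold back neural differentiation, in part through ID proteins.

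The sequences where SMAD proteins could act are shown first, because the Id genes and Smad6 are read as pathway targets. RefSeq promoter windows of assembly GRCm38.p6, running from 250 bases before to 50 after a gene start, were at hand for 8 of the 10 genes in 10 windows, 3 of them of Smad5. Id1 and Smad7 had no entry. The 250 bases before the start are printed 5′ to 3′ on the strand of the gene for Bmp4 and Id2, which differed most between the lines, and for Id3. Capitals mark the GC-rich SMAD element GGCGCC and the SMAD box GTCT, or its reverse complement AGAC. The Bmp4 stretch is chr14:46390670-46390919 on the minus strand, the Id2 stretch is chr12:25096093-25096342 on the minus strand, and the Id3 stretch is chr4:136143572-136143821 on the plus strand. For Smad6 the 30 bases around the start are given, chr9:64022045-64022074 on the minus strand, with the palindrome GTCTAGAC in capitals.
Bmp4: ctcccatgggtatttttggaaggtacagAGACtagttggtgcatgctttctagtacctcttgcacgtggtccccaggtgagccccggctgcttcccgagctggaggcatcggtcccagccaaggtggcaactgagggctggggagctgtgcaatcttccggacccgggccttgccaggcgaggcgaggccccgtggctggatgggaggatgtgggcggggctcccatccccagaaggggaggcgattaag
Id2: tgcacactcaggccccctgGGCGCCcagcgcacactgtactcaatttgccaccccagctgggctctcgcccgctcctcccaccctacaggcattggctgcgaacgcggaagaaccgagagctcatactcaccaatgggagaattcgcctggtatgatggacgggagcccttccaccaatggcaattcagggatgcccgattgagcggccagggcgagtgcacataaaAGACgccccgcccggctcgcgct
Id3: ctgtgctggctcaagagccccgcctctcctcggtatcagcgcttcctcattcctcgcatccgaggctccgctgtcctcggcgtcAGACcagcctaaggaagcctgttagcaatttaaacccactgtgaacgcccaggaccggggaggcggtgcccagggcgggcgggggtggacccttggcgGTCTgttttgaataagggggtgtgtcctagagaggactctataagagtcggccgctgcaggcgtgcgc
Smad6: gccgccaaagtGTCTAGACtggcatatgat

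Both strands were searched, and the motifs overlap, since the palindrome contains the SMAD box on each strand. The element GGCGCC was in 5 of the 10 member windows and in 11.9% of all 32851 windows. The 5 windows belong to 4 genes, since 2 overlapping Smad5 windows hold the same site. In the Id2 window GGCGCC lay at bases -231 to -226 from the start. In the member windows, G and C made up 60.0% to 78.8% of the 250 bases before the start. GGCGCC holds only G and C, and its share in windows of like content was not computed. GTCT, a short motif, was in 8 of 10 member windows, with 1 site shared by the same Smad5 windows, and in 88.0% of all windows. The palindrome GTCTAGAC was in 1 member window, that of Smad6, at -4 to 4 counted without a base 0, and in 0.213% of all windows. The STAT element TTCNNNGAA, bound by the factors LIF activates, was in 0 of 10 member windows and in 8.30% of all windows. These matches describe the letters in the windows and are not measured binding.

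The arrays had median signals of 114.2 to 143.5. The highest belonged to the second array of knockout-labelled cells with LIF, where 91.2% of probe sets reached a log2 signal of 4, against 85.2% to 87.4% in the other arrays. Zfp42 was not lost in the arrays labelled knockout: signals were 17997, 17282, 17139 and 16729 there and 18482, 23255, 18217 and 20563 in J1, a log2 difference of -0.21 (SE 0.16). Whether its probe set lies in the deleted part is not known, so it does not check the labels, and a direction between the lines is a direction between arrays so labelled. Defining ES cell markers were present in every array. The summed signal of 14 such genes, Pou5f1, Sox2, Nanog and Zfp42 among them, was 110940 to 144418 in J1 arrays. In knockout-labelled arrays it was 109569 to 132590. For LIF withdrawal averaged over the lines, 11 of the 14 had a negative and 3 a positive log2 difference. Klf4 (-0.85), Tdgf1 (-0.50) and Esrrb (-0.42) had an unadjusted p under 0.05 in limma. That is 3 of 14, against 3.22% of all genes, and 0 had an adjusted p under 0.05.

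No member probe set passed the test in any comparison, which in limma required a Benjamini-Hochberg adjusted p under 0.05 over 43439 probe sets. The share called over all probe sets was also 0% in each of 7 contrasts. At an unadjusted p under 0.05, 1 of 23 member probe sets stood out for LIF withdrawal averaged over the lines, against 4.02% of all probe sets, and 2 of 23 for genotype averaged over LIF, against 5.27%. By line, LIF withdrawal gave 0 of 23 in J1 cells (3.61% of all) and 1 of 23 in knockout-labelled cells (4.07%). By LIF state, genotype gave 1 of 23 with LIF (5.02%) and 0 of 23 without LIF (3.68%). The interaction of genotype and LIF gave 0 of 23 (3.55%). These counts are near the background. The median member difference was 0.06 on the log2 scale for LIF withdrawal and -0.0007 for genotype, beside -0.007 and 0.02 over all probe sets.

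Each group had 2 arrays, and any shift between first and second arrays entered the errors of the main fit. With the letter r as a block, the SE for genotype went from 0.36 to 0.13 for Id1. For Id2 1435176_a_at it went from 0.24 to 0.23. In the main fit the median standard error (SE) of a member was 0.25 log2 units for an averaged difference and 0.35 for a single one. In simulated data of the same size, 0% of 2-fold and 26% of 4-fold changes were called for LIF withdrawal averaged over the lines, and 2% and 28% for genotype averaged over LIF. A change of 2-fold in a member could therefore go without a call. The simulated noise was independent between arrays and held no shift between first and second arrays. The changed probe sets were a small share of all, drawn at random over all signal levels, so these percentages are not specific to the members.

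**Figure D1:**
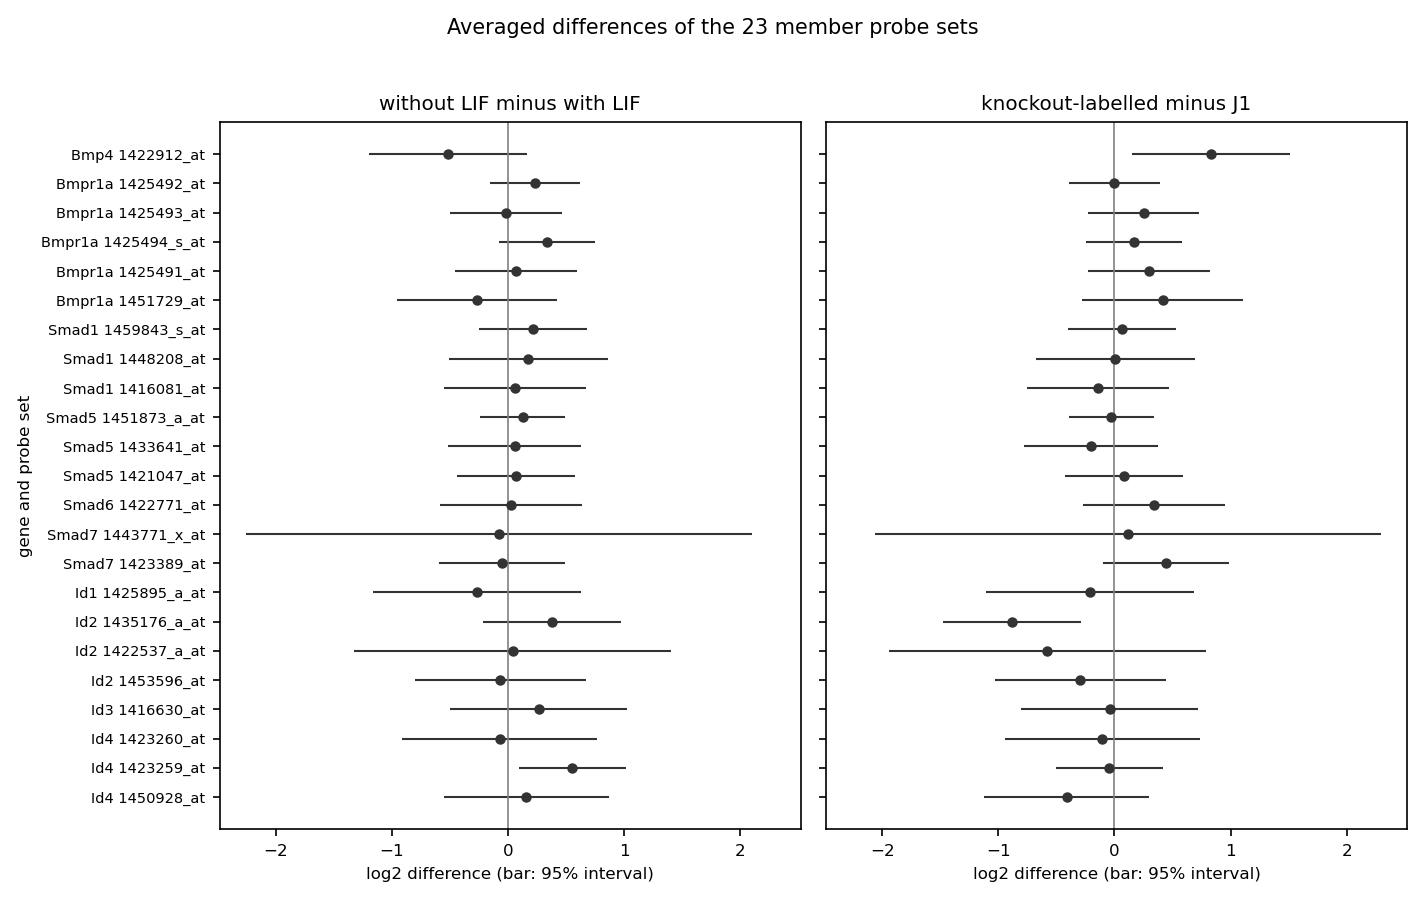
Averaged log2 differences of the 23 member probe sets, without LIF minus with LIF on the left and knockout-labelled minus J1 on the right, with 95% intervals of the limma fit as bars. The intervals of Bmp4 (0.15 to 1.51) and of Id2 1435176_a_at (-1.48 to -0.29) lie away from 0 on the right, and that of Id4 1423259_at (0.09 to 1.01) on the left.

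Bmp4, the ligand that ES cells themselves make, had the highest genotype difference among the members. Its signals were 1133 and 946.5 in J1 with LIF, 1104 and 557.3 in J1 without LIF, 2179 and 1824 in knockout-labelled cells with LIF, and 1455 and 1140 in knockout-labelled cells without LIF. All 4 knockout-labelled arrays lay above all 4 J1 arrays, though the lowest of them, 1140, was close to the highest of J1, 1133. Across all probe sets 2.1% showed that order. The averaged log2 difference was 0.83 (SE 0.27, 95% interval 0.15 to 1.51), a 1.78-fold higher signal, with an unadjusted p of 0.0247 and a limma adjusted p of 0.898. It was 0.94 (SE 0.39) with LIF and 0.72 (SE 0.39) without.

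For LIF withdrawal, Bmp4 had log2 differences of -0.40 in J1 and -0.63 in knockout-labelled cells (SE 0.39 each), and -0.52 on average (95% interval -1.19 to 0.16). Leaving out 1 array at a time moved the average between -0.76 and -0.27, which are the values without the first and without the second array of J1 without LIF. Arrays with and without LIF overlapped when the lines were pooled. The order of group levels was knockout-labelled with LIF, knockout-labelled without, J1 with and J1 without LIF, in which the neighbours within a line did not pass the test and the middle pair was not tested. The genotype difference moved between 0.58 and 1.08 in the same way.

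**Figure D2:**
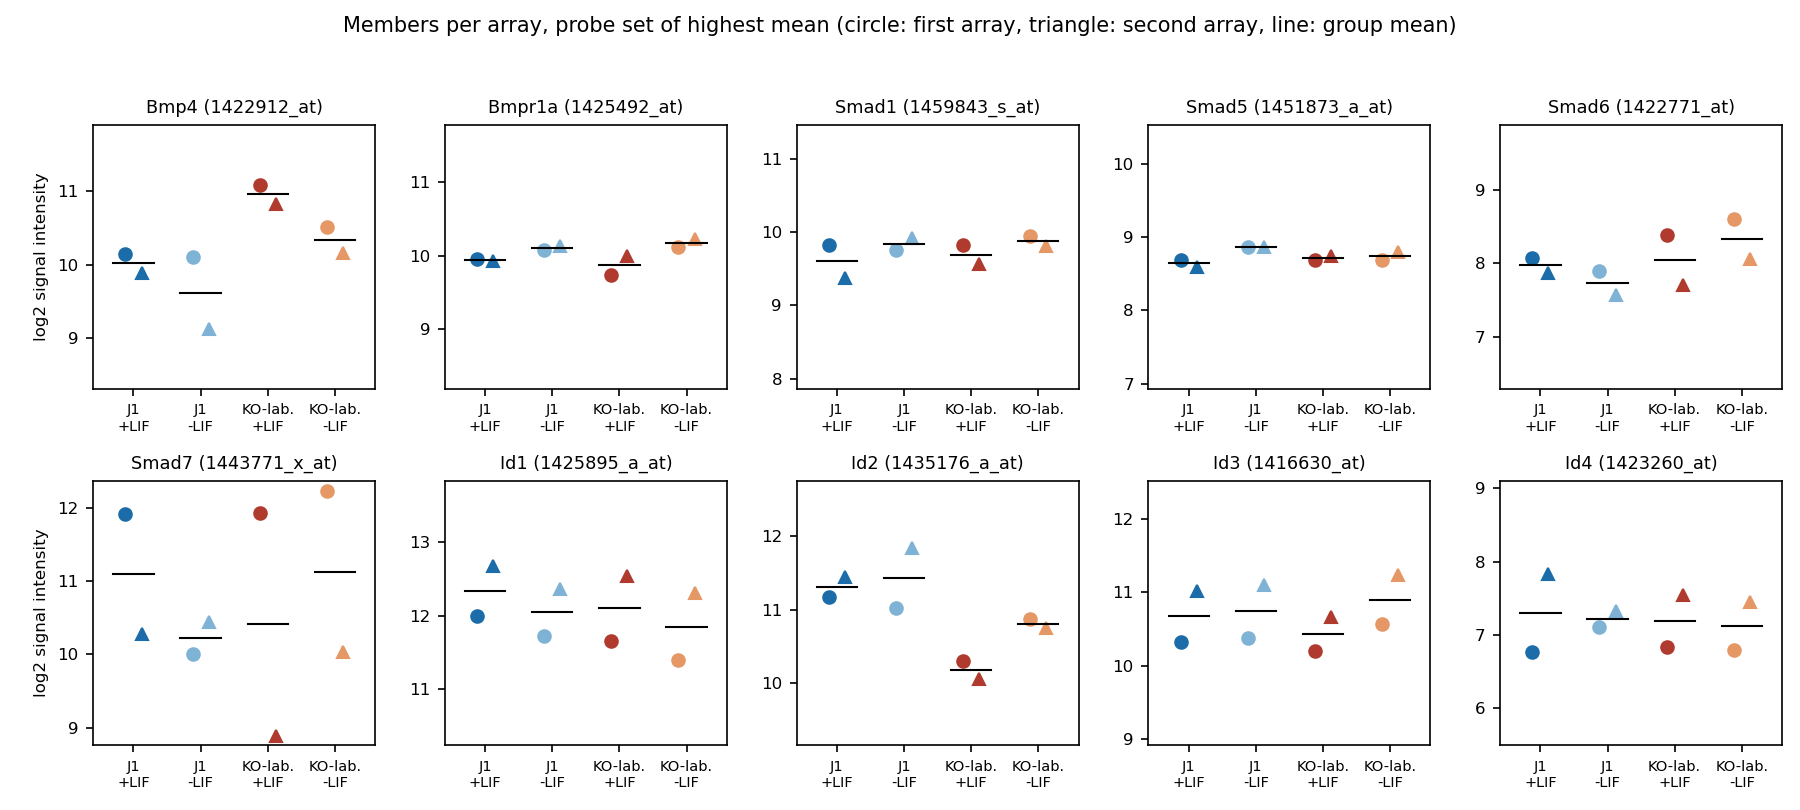
Log2 signal of the 10 members in each of the 8 arrays, 1 panel a gene by its probe set of highest mean, with circles for first arrays, triangles for second arrays and a line for the mean of each group. Bmp4 stands higher and Id2 lower in the 4 knockout-labelled arrays, and the Id1 and Id3 triangles stand above their circles in all 4 groups.

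Bmpr1a, the type I receptor, showed a small and probe-dependent difference with LIF. The probe set 1425492_at read 992.1 and 975.7 in J1 with LIF, 853.2 and 1025 in knockout-labelled cells with LIF, 1079 and 1118 in J1 without LIF, and 1109 and 1202 in knockout-labelled cells without LIF. The 4 arrays without LIF lay above the 4 with LIF. The probe set 1425494_s_at had the same order by a narrow margin, 508.2 to 682.2 without LIF against 415.4 to 507.7 with it. Their averaged log2 differences were 0.23 (SE 0.16) and 0.33 (SE 0.17). The other 3 Bmpr1a probe sets gave -0.02, 0.07 and -0.27, with overlapping groups.

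Together with an Id4 probe set described later, these made 3 of 23 member probe sets above in all arrays without LIF, where 1.02% of all probe sets were, and 0 of 23 below, where 1.33% were. Without the second array of knockout-labelled cells with LIF, the count above was 4 of 23, with Smad5 1451873_a_at added, against 2.51% of all probe sets. By genotype the leading Bmpr1a probe set had a log2 difference of -0.0007 (SE 0.16), and the other 4 gave 0.17 to 0.42.

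Smad1 and Smad5, which the receptor phosphorylates, had small averaged differences. The Smad1 probe set 1459843_s_at read 906.9 and 662.0 in J1 with LIF, 864.0 and 970.2 in J1 without, 901.1 and 754.7 in knockout-labelled cells with LIF, and 988.6 and 897.1 without. Its averaged log2 difference was 0.22 (SE 0.19) for LIF withdrawal and 0.07 for genotype. The first of these was 0.10 to 0.33 with 1 array left out at a time, 0.03 within the first arrays and 0.40 within the second, and the groups overlapped. The Smad5 probe set 1451873_a_at read 412.8 and 385.9 in J1 with LIF, 466.5 and 465.4 in J1 without, 410.9 and 426.9 in knockout-labelled cells with LIF, and 413.2 and 442.9 without. All 8 values lay between 385.9 and 466.5, the narrowest range of any member by its leading probe set. The 2 arrays of J1 without LIF were above the other 6. Its differences were 0.13 (SE 0.15) for LIF withdrawal and -0.03 for genotype. The remaining 4 probe sets of these genes gave 0.06 to 0.17 for LIF withdrawal and -0.20 to 0.08 for genotype.

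Smad6, an inhibitor that BMP signalling induces, read 270.1 and 234.1 in J1 with LIF, 237.4 and 190.0 in J1 without, 335.7 and 209.0 in knockout-labelled cells with LIF, and 390.5 and 267.5 without. The second array lay below the first in every group, with log2 differences of -0.68 to -0.21, and the lines overlapped. Its genotype difference was 0.34 (SE 0.25), with 0.08 in the presence and 0.61 in the absence of LIF. With 1 array left out at a time it was 0.17 to 0.51, the extremes being without the first and without the second array of knockout-labelled cells with LIF. The LIF difference of 0.02 (SE 0.25) was the average of -0.24 in J1 and 0.29 in knockout-labelled cells.

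Smad7, the inhibitor shared with the TGF-beta branch, was read by a pair of probe sets with very unequal spread. The probe set 1443771_x_at, whose suffix marks probes that can also bind other transcripts, read 3864 and 1239 in J1 with LIF, 1024 and 1387 in J1 without, 3913 and 475.7 in knockout-labelled cells with LIF, and 4822 and 1044 without. The second array minus the first reached -3.04 log2 units in 1 group, and the genotype difference of 0.12 had a 95% interval of -2.06 to 2.29. Its interaction of 1.59 (SE 1.75) was the highest of any member and did not pass the test. The probe set 1423389_at read 1023 and 680.9, 849.5 and 683.6 in J1 with and without LIF. In knockout-labelled cells it read 1117 and 1033 with LIF and 1250 and 951.2 without. Its genotype difference was 0.44 (SE 0.22, unadjusted p 0.0930, limma adjusted p 0.985) and its LIF difference -0.05 (SE 0.22), and the lines overlapped in range.

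Id1, the ID gene with the closest textbook link to BMP signalling, differed more between the arrays of a group than between groups. Its single probe set read 4064 and 6539 in J1 with LIF, 3393 and 5252 in J1 without, 3236 and 5961 in knockout-labelled cells with LIF, and 2688 and 5073 without. All second arrays lay above all first arrays, by 0.63 to 0.92 log2 units. For LIF withdrawal its log2 difference was -0.29 in J1 and -0.25 in knockout-labelled cells, or -0.27 on average (SE 0.36, 95% interval -1.17 to 0.63). Within the first arrays alone the averaged difference was -0.26 and within the second arrays alone -0.27, each from 1 array a group and without a test. Leaving out 1 array at a time moved it between -0.50 and -0.04, the latter without the first array of knockout-labelled cells without LIF. The genotype difference was -0.21 (SE 0.36).

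Id2, an ID protein also known from neural and immune development, had the lowest genotype difference among the members. Its leading probe set 1435176_a_at read 2313 and 2794 in J1 with LIF, 2074 and 3683 in J1 without, 1254 and 1064 in knockout-labelled cells with LIF, and 1874 and 1716 without. All knockout-labelled arrays lay below all J1 arrays, an order found in 1.74% of all probe sets. The averaged log2 difference was -0.88 (SE 0.24, 95% interval -1.48 to -0.29), a 1.84-fold lower signal, with an unadjusted p of 0.0115 and a limma adjusted p of 0.871. With LIF it was -1.14 (SE 0.34, adjusted p 0.887) and without LIF -0.62 (SE 0.34). The interaction was 0.51 (SE 0.48), so the differences with and without LIF could not be told apart.

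The other Id2 probe sets had the same sign on average over LIF, with larger errors. The probe set 1422537_a_at read 530.8 and 1042 in J1 with LIF, 546.9 and 1288 in J1 without, 297.1 and 1006 in knockout-labelled cells with LIF, and 372.9 and 702.1 without. Its genotype difference was -0.58 (SE 0.55) and the lines overlapped. With the letter r as a block in the fit, the SE was 0.20 and the limma adjusted p 0.671. The dim probe set 1453596_at, at 57.7 to 140.1, gave -0.29 (SE 0.30). With LIF the same probe set gave 0.13, against -1.14 for the leading one. The mean of all 3 Id2 probe sets gave -0.58 (SE 0.29). Leaving out 1 array at a time moved the leading probe set between -1.09 and -0.67. Within the first arrays alone its averaged difference was -0.51 and within the second arrays alone -1.25, from 1 array a group and with no test. For LIF withdrawal the leading probe set gave 0.38 (SE 0.24) on average, from 0.12 in J1 and 0.63 in knockout-labelled cells. That average was 0.17 to 0.58 with 1 array left out at a time, lowest without the second and highest without the first array of J1 without LIF.

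**Figure D3:**
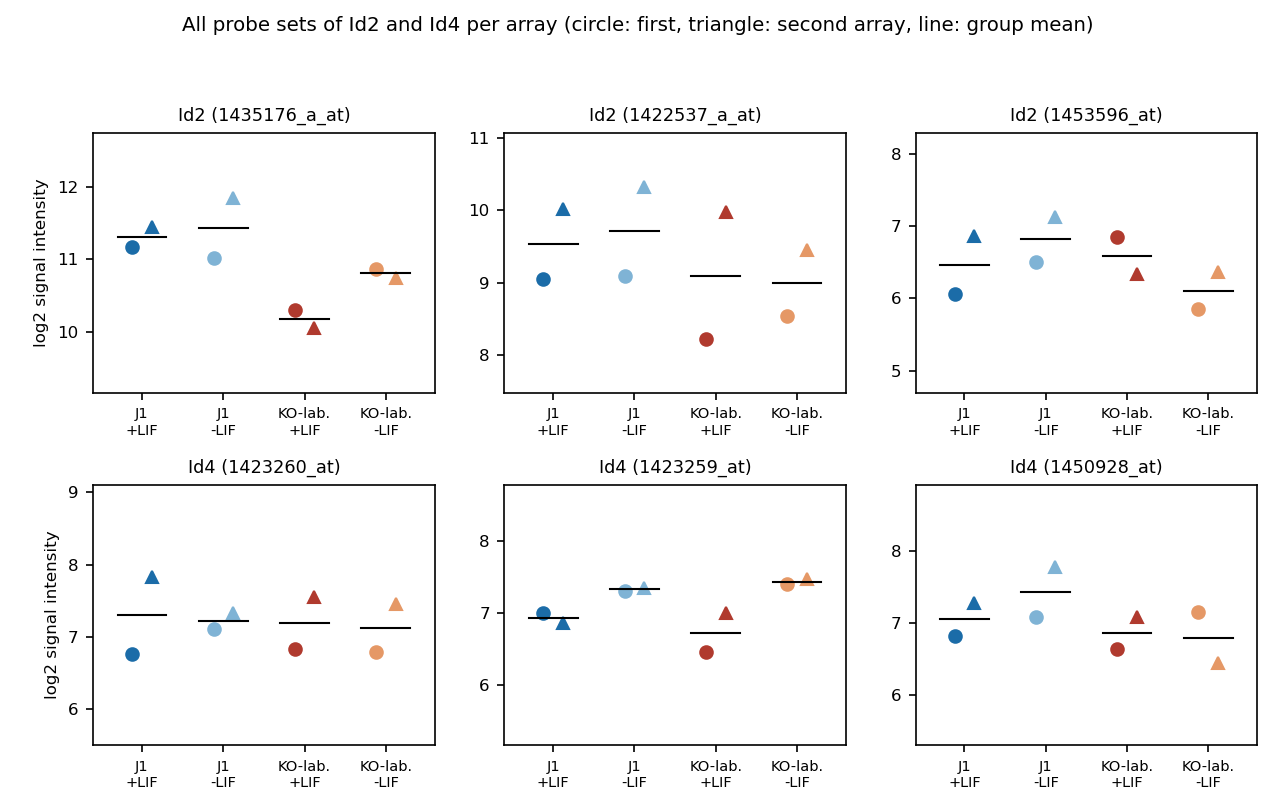
Log2 signal of all 3 probe sets of Id2 and all 3 of Id4 in each of the 8 arrays, with circles for first arrays, triangles for second arrays and a line for each group mean. Only 1435176_a_at of Id2 separates the lines and only 1423259_at of Id4 separates the LIF states.

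Id3, often induced together with Id1, read 1285 and 2072 in J1 with LIF, 1330 and 2201 in J1 without, 1177 and 1627 in knockout-labelled cells with LIF, and 1511 and 2402 without. As with Id1, each second array lay above each first array, by 0.47 to 0.73 log2 units within a group. Its difference was 0.26 (SE 0.31) for LIF withdrawal, with 0.07 in J1 and 0.46 in knockout-labelled cells, and -0.04 (SE 0.31) for genotype. The LIF difference was 0.08 to 0.45 with 1 array left out at a time, lowest without the second and highest without the first array of J1 without LIF. The averaged LIF differences of Id1 and Id3 had opposite signs, and neither passed the test.

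Id4, an ID gene best known from the nervous system, was dim by all its probe sets, with signals of 86.8 to 228.2. The probe set 1423259_at read 127.5 and 116.2 in J1 with LIF, 158.0 and 163.4 in J1 without, 88.2 and 127.7 in knockout-labelled cells with LIF, and 168.4 and 178.2 without. All arrays without LIF lay above all with it. The averaged log2 difference was 0.55 (SE 0.19, 95% interval 0.09 to 1.01, unadjusted p 0.0264, limma adjusted p 1.00), from 0.40 in J1 and 0.71 in knockout-labelled cells. The leading probe set 1423260_at, at 108.6 to 228.2, gave -0.07 (SE 0.34), and 1450928_at gave 0.16, so the probe sets of Id4 disagreed. Signals near these may hold an unknown share of background.

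The arrays of a group differed in an ordered way for several members. The second array was above the first in all pairings of 4 against 4 for 6 of 23 member probe sets, where 7.15% of all probe sets showed this: Id1, Id3, Id2 1422537_a_at, Id4 1423260_at and the Smad5 probe sets 1433641_at and 1421047_at. Smad1 1448208_at was the 1 of 23 with all second arrays below, against 5.2% of all. The Gapdh control's log2 ratio of 3′ to 5′ signal was -0.46 to -0.30 over the arrays with second minus first at -0.16 to -0.06, and the Actb ratio was 0.24 to 0.35. Their part in the result was not tested.

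**Figure D4:**
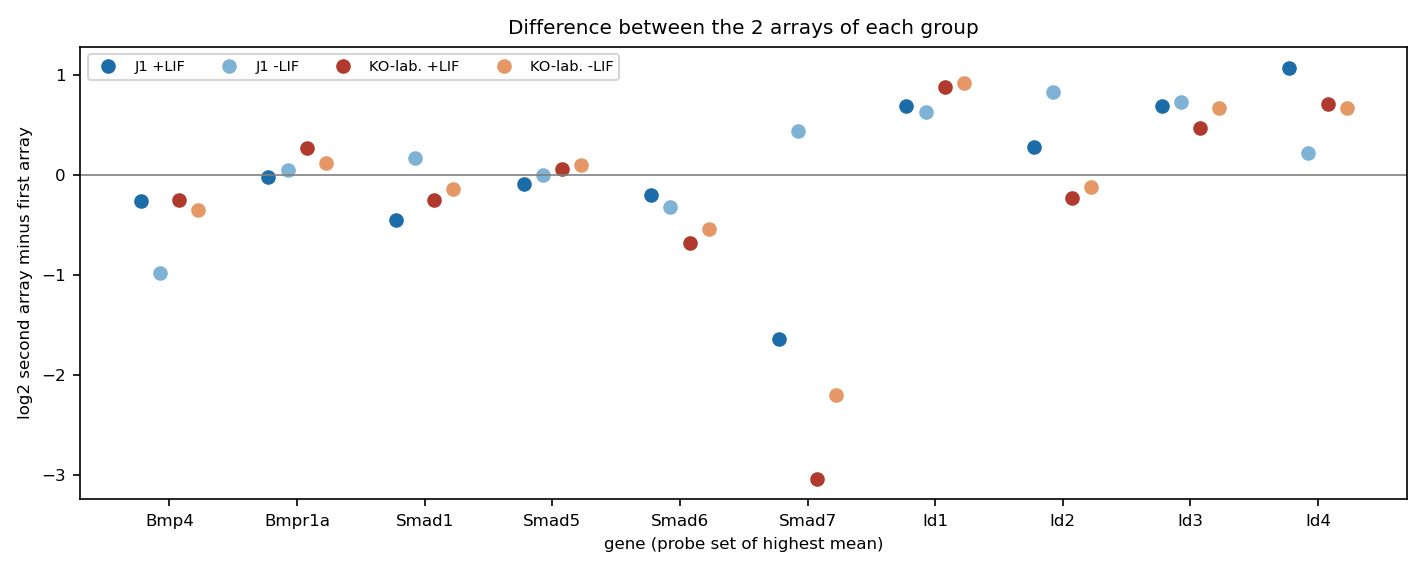
Log2 difference of the second array minus the first array in each of the 4 groups, for the probe set of highest mean of each member, with 1 point a group. Id1 (0.63 to 0.92) and Id3 (0.47 to 0.73) are above 0 in every group, and Smad7 spans -3.04 to 0.44.

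The rest of the pathway was read through lists chosen with earlier results known, with the probe set of highest mean for each gene. No listed gene passed the test. Over all 17836 genes, 3.22% had an unadjusted p under 0.05 for LIF withdrawal and 4.63% for genotype, and the median gene differed by -0.005 and 0.01.

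Of the 9 measured BMP ligands and relatives, 7 had a negative and 2 a positive LIF difference, with a median of -0.27, and 0 had an unadjusted p under 0.05. Gdf3, a relative made by ES cells and the ligand of highest mean, gave -0.15. Apart from Gdf3 and Bmp4 the ligands were dim, with mean log2 signals of 4.68 to 6.94. Most of these signs thus come from dim probe sets. By genotype 6 of the 9 were negative and 3 positive, and Bmp4 was the 1 with an unadjusted p under 0.05.

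The 10 receptors had medians of 0.08 and -0.03 for LIF withdrawal and genotype, and 0 of 10 stood out in either. Bmpr2, the type II receptor of BMP ligands, gave 0.16 and 0.17. Among the 8 SMAD genes, none of the 7 besides Smad9 had an unadjusted p under 0.05 in limma in either comparison. Smad9, a further BMP-responsive SMAD, passed the filter on low values only through the group where it was high, so its values are a description without a test. Its signals were 7.32 and 14.9 in J1 with LIF, 6.52 and 12.4 in J1 without, 51.5 and 155.3 in knockout-labelled cells with LIF, and 14.2 and 8.76 without. The higher values sat in 1 group, which holds the array with the highest median signal, and the part of that array was not tested. Smad4, the shared partner, gave 0.08 and 0.06.

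Secreted antagonists, which bind BMP ligands outside the cell, showed 7 of 12 genes positive for LIF withdrawal and 5 of 12 for genotype. The dim Fstl3, at signals of 16.8 to 72.1, gave 0.98 (SE 0.37) for LIF withdrawal. Fstl1 gave -0.89 (SE 0.34) for genotype, from 614.6 to 1059 in J1 and 323.4 to 782.2 in knockout-labelled cells. The antagonist list thus had 1 of 12 under an unadjusted p of 0.05 in each comparison. Among 16 intracellular regulators, Skil, a repressor that binds SMAD complexes, gave -0.38 (SE 0.15) for genotype and was the 1 of 16, with 0 of 16 for LIF withdrawal.

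Of 15 BMP-responsive genes besides the Id family, 11 were positive and 4 negative for genotype, with a median of 0.21. Most of the 11 had a mean log2 under 8, Atoh8 (3.74) and Zeb2 (6.67) among them. An unadjusted p under 0.05 in limma was found for 2 of 15. Tbx3, a T-box factor of ES cells, read 932.2 and 731.3 in J1 with LIF, 705.7 and 520.3 in J1 without, 1286 and 1448 in knockout-labelled cells with LIF, and 1090 and 1363 without. All knockout-labelled arrays were above all J1 arrays, and the difference was 0.87 (SE 0.20, unadjusted p 0.00577 in limma). Hey1, also a Notch target, gave 1.02 (SE 0.39) with overlapping lines. For LIF withdrawal 8 of 15 were positive and 0 of 15 stood out. The leading probe sets of all 4 ID genes had a negative genotype difference, with a median of -0.16, though those of Id1, Id3 and Id4 turned positive with certain single arrays left out. A test of BMP-responsive genes against ID genes was not run.

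The proteins that ID proteins bind were also read. All 3 E proteins had a negative genotype difference, with a median of -0.17, and 0 of 3 stood out. Tcf12, an E protein, gave 0.56 (SE 0.25) for LIF withdrawal. Of 16 tissue bHLH factors, 11 were negative for LIF withdrawal and 2 stood out. Hes1, a Notch-driven repressor, gave -0.50 (SE 0.17, unadjusted p 0.0297 in limma). Neurod4, a neurogenic factor, gave -1.52 (SE 0.54) but was dim, with signals of 5.42 to 60.6. By genotype 2 of 16 stood out: Hey1, which is also in the list above, and the dim Tal1, a blood factor, at 1.75.

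**Figure D5:**
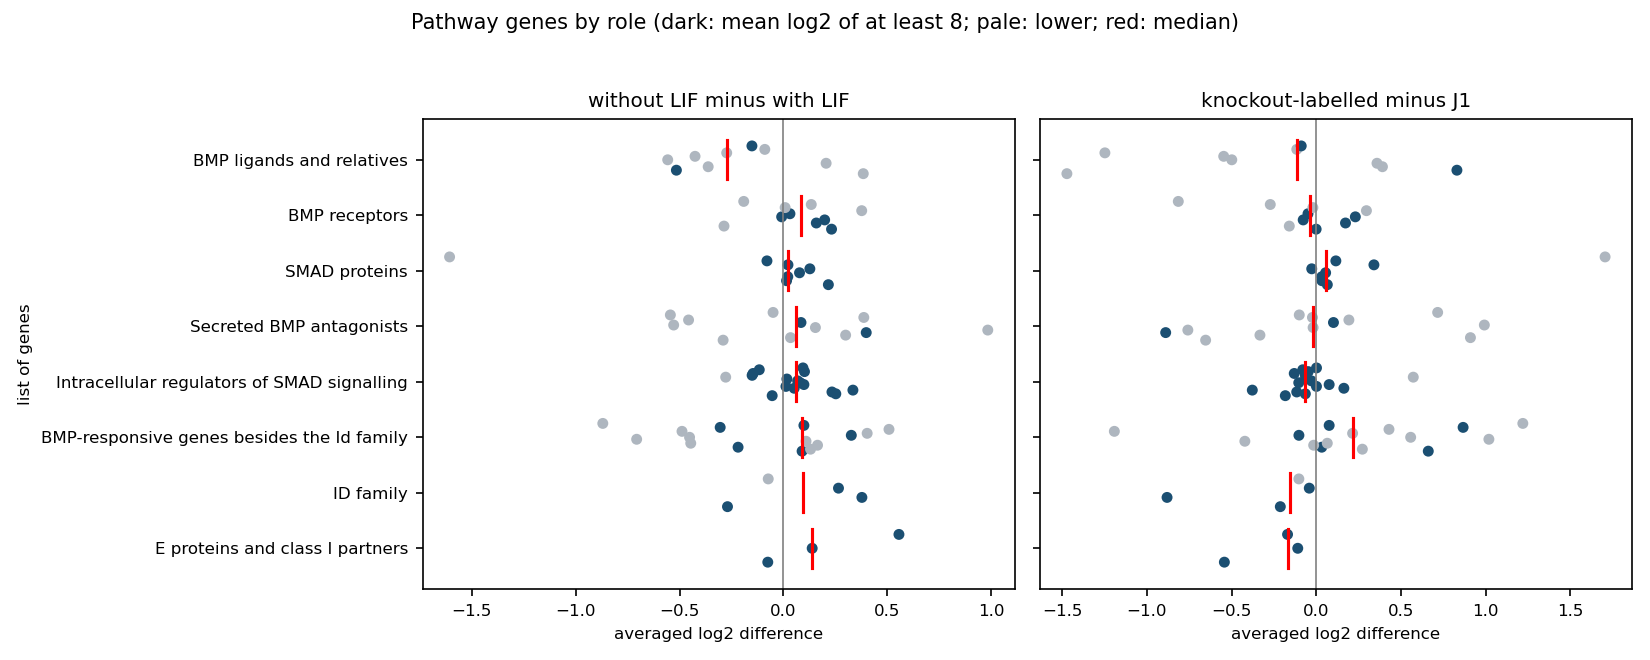
Averaged log2 difference of each measured pathway gene, 1 point a gene, by role, with dark points for a mean log2 signal of at least 8, pale points for lower ones and a red mark for the median of a list. Ligands have a median of -0.27 without LIF, and the 4 ID genes have a median of -0.16 in knockout-labelled cells.

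Markers of other cell types were summed per array beside these results. The sum of 13 fibroblast or feeder genes was 11172 and 2151 in the first and second arrays of J1 with LIF, 11309 and 1650 in those of J1 without, and 2141 to 3133 in knockout-labelled cells. Acta2, the smooth muscle actin, read 4592 and 974.0, then 4835 and 704.7 in J1 and 1044 to 1434 in knockout-labelled cells. Tagln, also a contractile gene, read 4833 and 177.5, then 4446 and 79.7 in J1. In knockout-labelled cells Tagln read 614.7 and 107.5 with LIF and 698.2 and 34.1 without, so the first arrays were higher there too. Acta2 and Tagln made up most of the high sums of the first J1 arrays. The matrix genes of fibroblasts were mixed. Col1a1 (418.7 and 35.2, then 493.2 and 63.1) was also higher in the first J1 arrays. So was Col1a2 (496.9 and 179.0, then 615.0 and 194.0). Lum (52.3 and 66.7, then 40.9 and 147.3) and Dcn (43.1 and 109.1, then 24.7 and 105.3) were lower there than in the second. The part of these genes in the differences between the lines was not tested.

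For 12 extraembryonic endoderm genes the sums were 1076 to 1363 in J1 and 1258 to 1733 in knockout-labelled cells, and 10 of 12 had a positive genotype difference. Sox17, an endoderm factor, gave 0.84 (SE 0.19) at low signals of 56.5 to 146.1. With Sox7 (0.80) it made 2 of 12 at an unadjusted p under 0.05 in limma, against 4.63% of all genes. The 2 negative genes were Gata6 (-0.42) and Afp (-0.47). The sums of 7 mesoderm genes were 730.0 to 978.1 in J1 and 822.6 to 1198 in knockout-labelled cells, with 4 of 7 positive for genotype and 1 of 7 at an unadjusted p under 0.05. That 1 was Mixl1, which BMP and Nodal signals induce in the primitive streak, which read 19.7 to 88.7 in J1 and 99.7 to 189.5 in knockout-labelled cells, a difference of 1.91 (SE 0.30, unadjusted p 0.000941 in limma). Kdr (-0.24), Msgn1 (-0.37) and Evx1 (-0.18) had differences of the opposite sign. Sums of 10 trophoblast genes were 1454 to 2477 in J1 and 1654 to 3639 in knockout-labelled cells. Tfap2c was the largest part of these sums, at 728.8 to 1876 in J1 and 922.2 to 2741 in knockout-labelled cells. The sums thus mainly follow that gene. No signal on the arrays was 0, the lowest being 0.111, so a marker above 0 is not thereby shown to be present. Gata3, for one, had a mean log2 of 3.49, under the filter value of 4. The part of these cell types in the Bmp4 and Id2 differences was not tested. In bulk RNA, fewer cells of a type and less RNA per cell cannot be told apart.

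The genes most like 3 ID genes were named by the correlation of log2 values over the 8 arrays, among 8365 genes with a mean log2 of at least 8. For Id1 these were Psmb2 (r = 0.982), Rrp36 (0.978) and Aen (0.978), and Id3 ranked 1114 with 0.69. For Id2 they were Nxf3 (0.983), Wasl (0.982) and Nphs1 (0.965), while Bmp4 ranked 8356 of 8365 with -0.93. For Id3 they were Sp1 (0.972), Acyp1 (0.971) and E2f1 (0.970). For Id1 and Id3 the difference between first and second arrays enters these values. Id2 1435176_a_at had no such order, with second minus first at -0.24 to 0.83. The Id2 and Bmp4 probe sets separated the lines in opposite directions, as given above, so their correlation is not a further result.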

How the data were processed

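The deposited values were linear signal intensity per probe set. GCRMA is named in the submitters' processing notes, without its version or its role. Trimmed of its lowest and highest 2%, each column averaged 500, and how that scale was reached is not stated. No background value was used. For knockout-labelled cells without LIF, the growth text mentions added LIF while titles and treatment text say it was absent, and the latter were followed.

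Of 45101 probe sets, 64 controls were dropped, leaving 45037. Symbols came from the platform annotation, checked against RefSeq (0 changed), and probe sets annotated to several symbols named no gene. The log2 of each intensity was taken with no pseudocount. Probe sets reaching a log2 of 4 in 2 or more arrays entered limma 3.58.1 in R 4.3.3, with 1 mean per group over 8 arrays and eBayes without a trend. Adjusted p-values are Benjamini-Hochberg over 43439 probe sets within each of 7 contrasts. The script was tested on simulated data. The probe set of highest mean stood for a gene where 1 value was needed. Python 3.11.15 with matplotlib 3.10.9 drew the plots.

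The members and lists were chosen with earlier results of these data known. Named genes were all members and, per list, the gene of highest mean and up to 4 genes of smallest unadjusted p under 0.05, not all of which are printed. For Id1, Id2 and Id3 the 3 most correlated genes were named. Replicate values were identical between arrays for at most 0.00222% of probe sets. Alternatives were the filter, quantile normalization, the variance prior, an offset of 16, the mean over probe sets, the letter r as a block, the 2 groups compared alone, and leaving out each array. Within-array-set values and counts without 1 array were added after the data were seen.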

Additional observations from a re-analysis of the deposited data

How the results depend on the processing

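In all 102 alternative counts, 0 member probe sets were called, and the lowest adjusted p of a member was 0.245, for the Bmp4 genotype difference in a fit with a replicate block by the letter r and a mean log2 of at least 7. That letter was not treated as pairing the arrays in the main fit, since its meaning is not stated. Second minus first differences correlated at 0.05 to 0.20 between groups, all positive. A part shared by the letter was thus present, and it stays in the errors of the main fit. With the replicate block alone, 4 of 23 member probe sets had an unadjusted p under 0.05 for genotype, against 7.24% of all, and 3 of 23 for LIF withdrawal, against 5.48%. With the block and that filter these were 6 of 22 (11.5%) and 5 of 22 (6.56%). Over all probe sets, the block with that filter called 2 for genotype and a trended, robust prior called 1. Without the second array of knockout-labelled cells with LIF, the shares of all probe sets with separate lines were 3.30% above and 3.09% below, and Bmp4 and Id2 1435176_a_at still separated. The filters, the variance prior and the replicate block cannot change an averaged difference in this balanced design. Their agreement in direction was fixed in advance, though they count among the settings. Of 20 averaged differences, 10 kept their direction under 18 settings, Bmp4 and Id2 in both comparisons among them.

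The others reversed in at least 1 setting, and the cause was not tested. For LIF withdrawal, Smad7 was 0.65 within the second arrays, and Id4 was 0.21 as the mean of all probe sets and 0.15 within the first arrays. For genotype, Bmpr1a was 0.024 with quantile normalization, 0.23 as the mean of all probe sets and 0.088 within the second arrays, and Smad1 was -0.022 as the mean of all probe sets. Within the second arrays Smad5 was 0.037 and Smad7 -0.90, and within the first arrays Id3 was 0.029. Leaving out 1 array at a time gave LIF differences of -0.15 to 0.19 for Smad6, -0.84 to 0.68 for Smad7 and -0.34 to 0.19 for Id4. It gave genotype differences of -0.067 to 0.065 for Bmpr1a, -0.048 to 0.18 for Smad1, -0.64 to 0.88 for Smad7, -0.44 to 0.017 for Id1, -0.22 to 0.14 for Id3 and -0.37 to 0.17 for Id4.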
